A study of Mus musculus with 36 samples.

Results

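Primary mouse prostate organoids, cultures grown from epithelial cells, were compared 11 days into an induction experiment with the R219S variant of the transcription factor FOXA1 and with wild-type FOXA1 (WT). The members are the 3 libraries titled as day 11 R219S replicates and the 3 titled as day 11 WT replicates, 6 of the 36 libraries of the series. Further groups of 3 libraries each serve as context: R219S and WT at day 0 and day 1, and an empty vector (EV) at days 0, 1 and 11. The remaining 9 libraries carry the FE255del variant of FOXA1 on the same days, and they enter only the model that estimates the spread between replicates. The vector is doxycycline-inducible and carries the red fluorescent protein DsRED, and 500 ng/mL doxycycline is the stated dose. The names of the deposited tables mark the day 0 libraries as without the drug, which the labels do not state, and the labels give no mouse strain or age. Cells carrying DsRED were collected by sorting, and each construct's sorted cells were plated as 3 cultures. The replicates of a construct therefore trace to 1 sorted population, and every p-value measures the spread between those cultures, not between mice or infections. R219S and WT are expressed on top of the endogenous Foxa1 gene, which EV cultures hold alone.

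FOXA1 is a forkhead transcription factor, called a pioneer factor because it can bind its sites in closed chromatin. In prostate epithelium it takes part in luminal differentiation and in the response to androgens. R219S replaces an arginine with a serine within the forkhead domain, the part of the protein that contacts DNA. Basal cells of the gland express Krt5, Krt14 and Trp63, and luminal cells express Krt8 and Krt18.

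The day 11 libraries held 73538068 to 77250626 counts in R219S and 64742732 to 83847121 counts in WT. Mitochondrial genes took 2.77% to 4.37% of the counts in R219S and 2.20% to 3.26% in WT. Across genes, the log2 levels of libraries correlated at a Pearson r of 0.992 to 0.994 within R219S, 0.992 to 0.995 within WT and 0.960 to 0.969 between R219S and WT. The cells were epithelial in all 6 libraries. Cdh1, which encodes E-cadherin, stood at 1371, 1398 and 1302 CPM (counts scaled by library size) in R219S, against 1404, 1382 and 1415 CPM in WT. Pbsn, the probasin gene of mature mouse prostate, had 0 counts in all 36 libraries.

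The overexpressed gene was checked first. Foxa1 (chr12:57540628-57546916, minus strand, GRCm38) stood at 263, 242 and 301 CPM in R219S, against 280, 273 and 253 CPM in WT and 217, 233 and 241 CPM in EV. The R219S and WT ranges overlapped. The fitted log2 fold change of R219S over WT was -0.0007 ± 0.06 (SE), with an adjusted p of 1, and it took either sign when single libraries were left out. Against EV the log2 fold change was 0.22 ± 0.06 in both R219S (adjusted p = 0.0036) and WT (adjusted p = 0.0027). WT lay above EV at day 0 already, at 253 to 259 CPM against 227 to 237 CPM. R219S stood at 222 to 235 CPM on that day. At day 1 the levels had been 312, 303 and 311 CPM in R219S, against 420, 413 and 410 CPM in WT, a log2 difference of -0.42 ± 0.06 (adjusted p = 1.6e-07). The counts pool whatever reads of the construct and of the endogenous gene were assigned to Foxa1, and they do not show which allele a read carried. Of its relatives, Foxa2 was at trace levels (0.29 to 0.30 CPM in R219S, 0.02 to 0.03 CPM in WT; log2 fold change 3.40 ± 0.74, adjusted p = 2.2e-04), and Foxa3, with 10 counts over the 3 R219S libraries and 8 over those of WT, was too low to test.

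**Figure D1:**
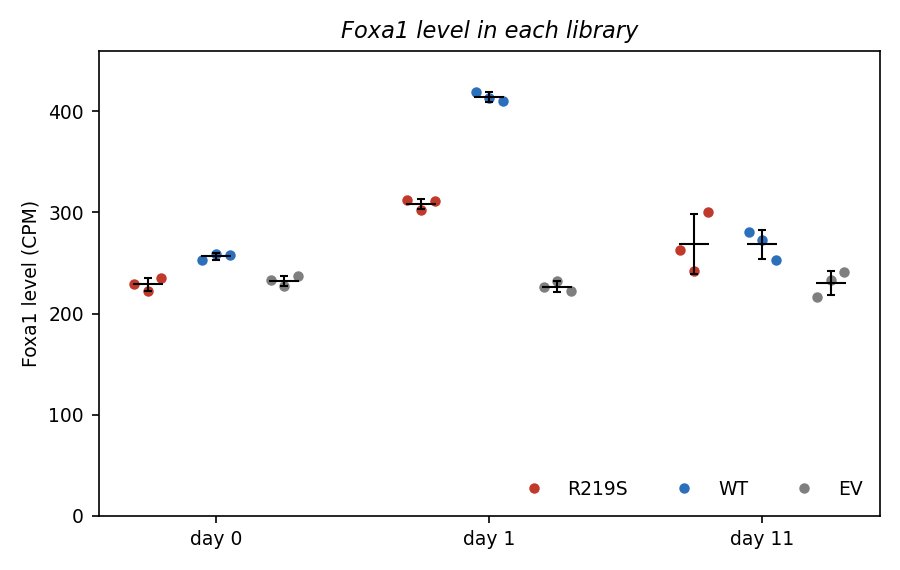
Foxa1 level (CPM, y axis) in each library at days 0, 1 and 11 (x axis) for R219S, WT and EV; points are libraries, and the black bars give the mean and SD of 3. At day 11 the R219S libraries (242 to 301 CPM) and the WT libraries (253 to 280 CPM) overlap, whereas at day 1 all 3 R219S libraries lie below all 3 WT libraries.

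Forkhead proteins recognise a short core that is commonly written TGTTTAC, with TATTTAC and TGTTTGC as close relatives. These letters were searched on both strands in RefSeq promoter windows (GRCm38.p6), which run from 250 bases before to 50 bases after an annotated start. At least 1 of the 3 cores was found in 75 of 522 windows (14.4%) of genes at least 4-fold lower in R219S than in WT. The corresponding shares were 64 of 511 windows (12.5%) for genes at least 4-fold higher and 1249 of 15156 windows (8.24%) for all tested genes, and no test was made of them. For TGTTTAC alone the shares were 5.75%, 3.91% and 2.89% in the same order. Of 49 genes singled out below, 35 had a window, and 6 of these held a core before the start. The following stretches, written 5′ to 3′ on the gene's strand with the core in capitals, are from Foxa1 itself and from 4 genes among the most strongly lower in R219S or lower on every day. The sixth gene with a core, Lef1, was higher in R219S and holds a single TGTTTGC site on the opposite strand. The site lies 213 or 239 bases before the start, depending on which annotated start is used. Its stretch is not shown because it overlaps an exon of an antisense transcript. In Cd177 the core reads TGTTTAC on the strand shown, and in the others it lies on the opposite strand.

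Foxa1 (chr12:57546220-57546278, minus strand): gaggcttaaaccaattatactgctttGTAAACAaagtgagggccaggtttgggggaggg

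Spdef (chr17:27728966-27729024, minus strand): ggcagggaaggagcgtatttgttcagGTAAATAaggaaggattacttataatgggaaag

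Pnliprp1 (chr19:58728803-58728861, plus strand): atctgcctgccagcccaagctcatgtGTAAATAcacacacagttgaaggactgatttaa

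Fgb (chr3:83049936-83049994, minus strand): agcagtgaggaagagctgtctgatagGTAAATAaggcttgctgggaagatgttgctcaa

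Cd177 (chr7:24760523-24760561, minus strand): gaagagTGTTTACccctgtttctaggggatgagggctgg

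The core begins 141 bases before the start in Foxa1, 47 in Spdef, 58 in Pnliprp1, 105 in Fgb and 244 in Cd177. The Foxa1 stretch also lies within a longer annotated non-coding transcript of Foxa1, outside its exons. A match to 7 letters is a description of these windows and does not show that FOXA1 binds there.

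At day 11, 8883 of 18176 tested genes (48.9%) differed between R219S and WT at an adjusted p under 0.05 in edgeR's quasi-likelihood test. Of these, 4500 (24.8% of tested genes) rose in R219S and 4383 (24.1%) fell. Higher genes made up 50.7% of the calls, and 36.7% when libraries were scaled by their total counts instead (3498 higher, 6031 lower). At least 4-fold differences were found for 588 higher genes (3.24%) and 637 lower genes (3.5%). The libraries of the groups did not overlap for 9202 genes (50.6%).

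The lines also differed at day 0, where 7231 genes (39.8%) were called, 4320 higher (23.8%) and 2911 lower (16%) in R219S. Higher genes made up 59.7% of these calls, and 43.4% under total-count scaling (3049 higher, 3978 lower). The groups did not overlap for 9229 genes (50.8%) at day 0 and 11810 genes (65%) at day 1. At day 1 the comparison called 10825 genes (59.6%), 5539 higher (30.5%) and 5286 lower (29.1%). Of the 4500 genes higher at day 11, 1840 were also higher at day 0, which is 40.9% of the day 11 genes and 42.6% of the day 0 genes, and 543 (12.1%) had been lower. Of the 4383 genes lower at day 11, 1190 were also lower at day 0 (27.2% of the day 11 genes, 40.9% of the day 0 genes) and 1027 (23.4%) had been higher. The days share no library but come from the same lines. The difference between R219S and WT changed from day 0 to day 11 in 7265 genes (40%), 3368 toward R219S (18.5%) and 3897 toward WT (21.4%), and 5525 of the 8883 day 11 genes were among them. From day 1 to day 11 it changed in 8282 genes (45.6%), 4062 toward R219S (22.3%) and 4220 toward WT (23.2%).

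The genes that fell furthest were near 0 in R219S and were far lower in EV than in WT. Upk3a (chr15:85017141-85022547), a uroplakin of the urothelial surface, stood at 0.08, 0.53 and 0.03 CPM in R219S, against 654, 657 and 671 CPM in WT and 2.67, 2.53 and 1.24 CPM in EV. R219S lay below EV and WT far above it, and the log2 fold change of R219S over WT was -11.62 ± 0.26 (adjusted p = 2e-22). Scgb1a1 (chr19:9083636-9087958), which encodes the club cell secretory protein of the airway, stood at 0.43, 0.58 and 0.52 CPM in R219S, against 578, 534 and 732 CPM in WT and 6.75, 2.98 and 5.61 CPM in EV. Its log2 fold change was -10.24 ± 0.24 (adjusted p = 3.1e-22). Upk1b, another uroplakin, fell by 6.82 ± 0.13 on the log2 scale, with 0.897, 1.398 and 1.187 CPM in R219S against 129, 132 and 132 CPM in WT.

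Several genes had no count in any R219S library. Folds for them are lower bounds with R219S set to 3 counts over its 3 libraries. Myh7 (chr14:54970684-54994626), the slow cardiac myosin heavy chain, stood at 16.9, 17.15 and 16.8 CPM in WT, with 0 counts in R219S and in EV, so it was at least 1220-fold lower in R219S (adjusted p = 3.8e-18). The same bound was 741-fold for Pnliprp1, a pancreatic lipase-related protein (12.1, 7.47 and 10.7 CPM in WT; adjusted p = 5.1e-13), and 618-fold for Hamp2, a hepcidin (8.46, 6.74 and 10.5 CPM in WT; adjusted p = 1.1e-13). It was 589-fold for the potassium channel subunit Kcne2, 415-fold for the prostaglandin D2 receptor Ptgdr and 312-fold for the fibrinogen chain Fgb, which DESeq2 did not call (adjusted p = 0.22). That all WT libraries lay above all R219S libraries in these 6 genes was a condition of the rule that named them. Eya1, a developmental co-activator, had 2 counts over the 3 R219S libraries and a ratio of 592-fold lower (95% exact interval 164 to 4890, counting error only), and the ratio for the B cell lectin Cd22, also with 2 counts in R219S, was 557-fold lower (154 to 4600). Dcdc2a, a doublecortin-domain protein of cilia, fell by 8.76 ± 0.42 on the log2 scale. Cd177, a surface glycoprotein known from neutrophils, fell by 8.64 ± 0.31, with 0.04, 0 and 0.08 CPM in R219S against 16.2, 17.9 and 17.5 CPM in WT.

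The genes that rose furthest were near 0 in both WT and EV. Rxfp1, the relaxin receptor, stood at 20.3, 12.9 and 29.1 CPM in R219S with 0 counts in WT and in EV, at least 1560-fold higher with WT set to 3 counts over its 3 libraries (adjusted p = 1.1e-06). Igf1 (chr10:87858265-87937042), the insulin-like growth factor, stood at 26.7, 33.8 and 42.6 CPM in R219S, against 0.07, 0.06 and 0 CPM in WT and 0 counts in EV (log2 fold change 9.53 ± 0.34, adjusted p = 1.3e-13). Col14a1 (chr15:55307750-55520803), a fibril-associated collagen, stood at 59.1, 59.5 and 75.9 CPM in R219S, against 0.14, 0.03 and 0.12 CPM in WT and 0.13, 0.14 and 0.21 CPM in EV (9.34 ± 0.22, adjusted p = 1.9e-24). Every R219S library also lay above every EV library in these genes, whereas no overlap with WT was a condition of the rule that named them.

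The same bound was 715-fold for Otol1, a collagen-like protein of the inner ear, 513-fold for the dehydrogenase Dhrs2, and 395-fold for the olfactory receptor Olfr558. It was 370-fold for Tmem35a, a chaperone of nicotinic receptors, 358-fold for the immunoglobulin kappa constant gene Igkc, and 313-fold for the matricellular protein Sparcl1. Rxfp1 and Igkc were not called by DESeq2 (adjusted p = 0.12 for Rxfp1 and 0.21 for Igkc). Igkc stood at 3.43, 4.09 and 6.89 CPM in R219S with 0 counts in WT and EV, while the B cell gene Ms4a1 had 0 counts in all 3 groups and Cd79a averaged 0.046 CPM in R219S and 0.096 CPM in WT. Tmem45a2 (log2 fold change 8.14 ± 0.41), the glycerol kinase-like gene Gykl1 (7.89 ± 0.41) and the corneal keratin Krt12 (7.70 ± 0.52) completed the 12 genes. Igf1, Col14a1 and Rxfp1 were already present in R219S at day 1, where Igf1 stood at 68.8, 73.7 and 69.0 CPM and Col14a1 at 170.4, 170.1 and 173.6 CPM, and Igf1 and Rxfp1 had 0 counts in R219S at day 0.

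**Figure D2:**
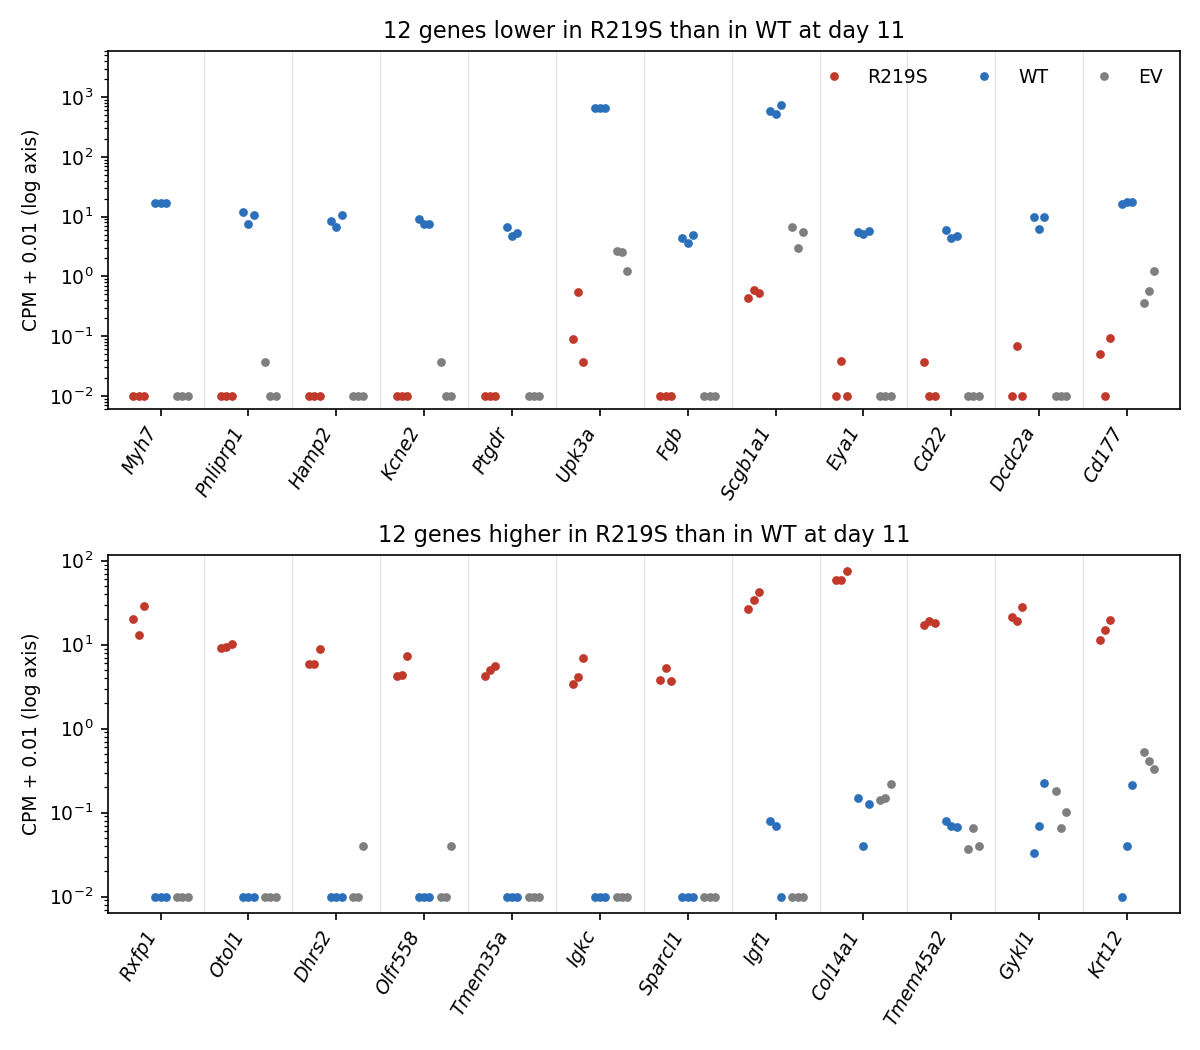
Level in each day 11 library (y axis, CPM + 0.01 on a log axis) of the 12 genes with the largest negative (top) and the 12 with the largest positive (bottom) log2 fold change of R219S over WT, among called, non-overlapping genes whose 6 libraries average 2 CPM or more; points at the bottom of an axis are libraries with no count. R219S lies far below WT in the top row, where Upk3a reaches 671 CPM in WT, and far above it in the bottom row, where Col14a1 reaches 75.9 CPM in R219S.

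Genes of the basal layer rose. Of 22 tested basal genes (24 listed), 18 rose in R219S and 4 fell, with a median log2 fold change of 0.73, beside 24.8% higher, 24.1% lower and a median of -0.01 over all tested genes. Krt5 stood at 6121, 6656 and 6325 CPM in R219S, against 2575, 2790 and 3224 CPM in WT and 6104, 5928 and 5649 CPM in EV (1.15 ± 0.06, adjusted p = 1.3e-18). Its partner keratin Krt14 stood at 2709, 3126 and 2775 CPM in R219S, against 962, 990 and 1191 CPM in WT (1.45 ± 0.07, adjusted p = 8.4e-19). All R219S libraries lay above all WT libraries for both keratins, and R219S lay near the EV level. Trp63, the transcription factor of basal cells, rose by 0.65 ± 0.07 (507, 545 and 479 CPM in R219S; 310, 303 and 364 CPM in WT). The hemidesmosome collagen Col17a1 rose by 1.57 ± 0.08, and the laminin genes Lama3 (2.10 ± 0.13) and Lamb3 (0.99 ± 0.06) rose with it. The 4 that fell were Gas6 (-2.65), Tgfb2 (-1.56), Ngfr (-1.26) and Krt15 (-0.64).

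Against EV, 11 of the 22 basal genes were higher and 2 lower in R219S, where 17.7% and 14.4% of all genes were called (32.1% in either direction). In WT against EV, 4 were higher and 16 lower, where 21% and 19.7% of all genes were called (40.6% in either direction). Both of these comparisons use the same EV libraries. The summed level of the basal list was 16587 to 18580 CPM in R219S, 7486 to 8953 CPM in WT and 13894 to 15021 CPM in EV. At day 0, 11 of the 22 genes were already higher in R219S and 7 lower (median 0.11). Among all tested genes 23.8% were higher and 16% lower on that day. Krt14 stood then at 2316, 2296 and 2201 CPM in R219S, against 1374, 1241 and 1438 CPM in WT. Krt5 averaged 4307 CPM in R219S and 3749 CPM in WT, and Trp63 226 CPM in R219S and 254 CPM in WT.

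Desmosome genes, which encode the adhesion plaques of stratified epithelia, moved the same way as the basal keratins. Of 15 tested, 11 rose and 2 fell (median 0.99), with 1 lower without R219S replicate 2 or WT replicate 3. The desmoglein Dsg3 stood at 360, 423 and 334 CPM in R219S, against 57.3, 55.2 and 85.2 CPM in WT (2.50 ± 0.12, adjusted p = 2.7e-16), and Perp, a membrane protein of desmosomes, at 987, 1141 and 908 CPM in R219S, against 326, 339 and 395 CPM in WT (1.52 ± 0.07). In both genes the groups did not overlap. Of 30 tested genes of squamous differentiation and the cornified envelope (37 listed), 17 rose and 4 fell (median 0.62), with 2 lower without WT replicate 3. The stress keratin Krt6a stood at 1067, 1027 and 1178 CPM in R219S, against 251, 265 and 338 CPM in WT (1.94 ± 0.08, adjusted p = 2.1e-19). At day 0, 19 of these 30 genes were already higher in R219S and 2 lower (median 0.87), so this list already differed at day 0. Among all tested genes 23.8% were higher and 16% lower on that day.

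Luminal genes were split. Of 24 tested (25 listed), 13 fell, 6 rose and 5 were not called (median -0.15). Krt8 stood at 176, 176 and 184 CPM in R219S, against 283, 308 and 305 CPM in WT and 316, 364 and 315 CPM in EV (-0.74 ± 0.07, adjusted p = 8.6e-11). Krt18 stood at 465, 433 and 477 CPM in R219S, against 656, 696 and 702 CPM in WT and 435, 467 and 455 CPM in EV (-0.58 ± 0.04, adjusted p = 7.9e-14). The groups did not overlap in either keratin. At day 0 the sign was the other way for both, 0.59 ± 0.07 for Krt8 and 0.31 ± 0.04 for Krt18.

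Spdef, an ETS factor of secretory epithelium, stood at 0.23, 0.16 and 0.26 CPM in R219S, against 9.32, 10.3 and 9.38 CPM in WT (-5.46 ± 0.23, adjusted p = 2.7e-20). The surface markers Cd24a (0.71 ± 0.05), Epcam (0.80 ± 0.06), Ly6a, which encodes Sca-1 (1.32 ± 0.06), and Dpp4 (4.88 ± 0.29) rose.

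Androgen-responsive genes moved both ways. Of 24 tested, 13 rose and 9 fell (median 0.19). Fkbp5, a co-chaperone induced by steroid receptors, stood at 69.5, 73.3 and 77.0 CPM in R219S, against 31.8, 30.3 and 27.3 CPM in WT and 94.7, 86.5 and 90.4 CPM in EV (1.30 ± 0.06, adjusted p = 1.4e-19). Tsc22d3 (1.21 ± 0.06), a glucocorticoid- and androgen-induced leucine zipper, and Pmepa1 (1.91), a regulator of TGF-beta signalling, also rose. Slc45a3, a transporter known as prostein, stood at 57.7, 48.2 and 47.5 CPM in R219S, against 114, 115 and 112 CPM in WT (-1.15 ± 0.06), and the scaffold gene Homer2 fell by 1.92 ± 0.08. Tmprss2, a serine protease, stood at 188, 155 and 154 CPM in R219S, against 243, 236 and 241 CPM in WT (-0.54 ± 0.05).

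Of 8 tested prostate and seminal vesicle secretory genes (19 listed, the rest too low to test), 4 fell and none rose. Pigr, the receptor that carries immunoglobulins across epithelia, stood at 34.5, 38.3 and 20.4 CPM in R219S, against 359, 403 and 374 CPM in WT and a mean of 254 CPM in EV (-3.61 ± 0.15, adjusted p = 1.1e-16). The spermine-binding protein gene Sbp stood at 4.39, 6.43 and 7.12 CPM in R219S, against 36.8, 22.6 and 28.7 CPM in WT, and it had 0 counts in EV, so both constructs lay above the empty vector. Of 19 tested trefoil, mucin and goblet genes, 11 fell and 3 rose (median -2.26). Without R219S replicate 3, 1 rose, and with only the compared groups in the model 7 fell (median -1.45). Clca1, a goblet cell secretory protein, stood at 8.26, 7.43 and 5.85 CPM in R219S, against 233, 189 and 213 CPM in WT (-4.88 ± 0.09, adjusted p = 2.2e-27). The mucin Muc15 was among those that rose, and it did so by 3.45 ± 0.23. Many of these members were close to 0: Muc6, Tff3 and Retnlb had no count in R219S and averaged 0.12, 0.12 and 2.24 CPM in WT.

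At day 0, 8 of 13 tested airway genes (23 listed) were already lower in R219S and 1 was higher. Among all tested genes 16% were lower and 23.8% higher on that day. At day 11, 7 of the 13 airway genes fell and 5 rose. Besides Scgb1a1, the antimicrobial lectin Reg3g (-5.27 ± 0.19), the club cell cytochrome Cyp2f2 (-4.59 ± 0.19), the water channel Aqp5 (-3.67 ± 0.14) and Foxj1, the master factor of motile cilia (-3.31 ± 0.14), fell. Lactoferrin, encoded by Ltf, rose by 1.36 ± 0.09, with 604, 622 and 452 CPM in R219S against 195, 229 and 230 CPM in WT and a mean of 851 CPM in EV. Of 11 tested urothelial genes, 6 fell and 4 rose. Krt20, a keratin of surface urothelium and gut, was among those that rose, at 14.8, 14.2 and 14.2 CPM in R219S against 0.32, 0.12 and 0.55 CPM in WT (5.44 ± 0.43), while Upk1a fell by 2.01 ± 0.20. The intestinal homeobox factor Cdx2 stood at 0.75, 0.37 and 0.39 CPM in R219S, against 10.6, 11.5 and 9.71 CPM in WT (-4.38 ± 0.15, adjusted p = 1.8e-22). At day 0 Cdx2 averaged 3.97 CPM in R219S and 10.1 CPM in WT. The medians of these short lists depend on which low genes are kept: -2.64 for the airway list, with -0.36 to -3.32 under other settings, and -1.16 for the urothelial list, or -0.37 with its gene of 0 counts at its bound. Without WT replicate 3 the medians were -1.32 for the airway list and -0.30 for the urothelial list.

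Mesenchymal and matrix genes rose more often than they fell. Of 18 tested genes of the mesenchymal transition list (28 listed), 11 rose and 2 fell (median 0.74), with 1 lower without R219S replicate 1 or 3 or WT replicate 1 or 3. Vim (chr2:13573927-13582826), the intermediate filament vimentin, stood at 153, 145 and 163 CPM in R219S, against 10.3, 9.97 and 9.99 CPM in WT and 8.10, 6.64 and 3.86 CPM in EV (3.93 ± 0.15, adjusted p = 1.7e-18). The matrix protein gene Postn stood at 74.2, 105 and 66.3 CPM in R219S, against 0.64, 0.57 and 1.53 CPM in WT and a mean of 9.30 CPM in EV (6.51 ± 0.26, adjusted p = 2.7e-18). Sparc stood at 203, 244 and 183 CPM in R219S, against 41.3, 46.6 and 74.8 CPM in WT and a mean of 155 CPM in EV (1.96 ± 0.16). The groups R219S and WT did not overlap in any of the 3 genes. The transition factors went in opposite directions at low levels, Zeb2 up (2.76 ± 0.39; 1.39 CPM in R219S and 0.20 CPM in WT) and Zeb1 down (-2.39 ± 0.47; 0.14 CPM in R219S and 0.71 CPM in WT). E-cadherin was not called (-0.05 ± 0.04, adjusted p = 0.39).

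Of 34 tested collagen genes (42 listed), 15 rose and 6 fell (median 0.84). The basement membrane collagen Col4a2 (0.82 ± 0.06), Col18a1 (1.44 ± 0.11) and Col8a1 (1.52 ± 0.12) rose with Col14a1, whereas the cartilage collagen Col10a1 fell by 6.92 ± 0.46 (0, 0.06 and 0 CPM in R219S; 2.24, 3.03 and 2.10 CPM in WT). Of 23 tested proteoglycan and hyaluronan genes, 14 rose and 5 fell (median 0.46). With a stricter filter on low counts 8 collagen genes rose and 2 fell, and with no filter the median was 0 for the proteoglycan list and 0.32 for the mesenchymal list. Gpc1, a glypican, stood at 282, 259 and 267 CPM in R219S, against 59.5, 63.2 and 80.2 CPM in WT (1.99 ± 0.08, adjusted p = 8.8e-20), and the hyaluronan synthase Has3 rose by 2.45 ± 0.13.

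Of 12 fibroblast markers, 6 were tested, and 4 of them rose and none fell. Their summed level was 38.5 to 55.8 CPM in R219S, 14.9 to 17.3 CPM in WT and 13.2 to 22.4 CPM in EV, most of it from the proteoglycan gene Dcn (30.4, 44.8 and 41.5 CPM in R219S; 14.1, 13.0 and 11.5 CPM in WT; 1.59 ± 0.22). Cd34 averaged 6.14 CPM in R219S and 1.43 CPM in WT (2.09 ± 0.24), Lum 0.66 CPM in R219S and 0.01 CPM in WT (5.95 ± 0.86), and Col1a1 1.398 CPM in R219S and 0.73 CPM in WT (0.93 ± 0.29). Lum was not called by DESeq2 (adjusted p = 0.51), nor Col1a1 without WT replicate 2 (adjusted p = 0.078). The defining fibroblast gene Col1a2 had 0 counts in all 3 groups, Thy1 had none in R219S or WT, and Pdgfra averaged 0.27 CPM in R219S and 0.43 CPM in WT. Smooth muscle markers summed to 170 to 196 CPM in R219S, 120 to 128 CPM in WT and 134 to 146 CPM in EV, with 1 of 8 tested markers higher (Smtn, 0.72 ± 0.07) and 1 lower (Synpo2, not called without R219S replicate 1, adjusted p = 0.12, or WT replicate 2, adjusted p = 0.14). Endothelial markers summed to 2.74 to 3.35 CPM in R219S and 4.49 to 5.46 CPM in WT, with 3 of 4 tested lower, and neural and glial markers to 152 to 161 CPM in R219S and 180 to 192 CPM in WT, with 2 of 6 tested lower, or 1 without R219S replicate 1 or 2 or WT replicate 1 or 2. Nearly all of the neural and glial sum came from Mbp, with means of 109 CPM in R219S and 138 CPM in WT, and Map2, with 45.8 CPM in R219S and 43.7 CPM in WT. Whether cells of the types in this paragraph contributed to the matrix results was not tested.

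Genes of the interferon response were higher in R219S with few exceptions. Of 43 tested (44 listed), 41 rose in R219S, 1 fell and 1 was not called, with a median log2 fold change of 1.53. The libraries of R219S and WT did not overlap for 42 of them, beside 50.6% of all genes. Bst2, an antiviral membrane protein, stood at 85.3, 122 and 75.2 CPM in R219S, against 14.6, 13.8 and 16.6 CPM in WT and a mean of 60.01 CPM in EV (2.65 ± 0.15, adjusted p = 2.3e-14). The guanylate-binding protein gene Gbp2 stood at 14.7, 23.6 and 17.2 CPM in R219S, against 3.67, 4.82 and 4.42 CPM in WT and a mean of 12.6 CPM in EV (2.11 ± 0.13, adjusted p = 7.4e-16). In both genes R219S lay near or above EV and WT below it.

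The ubiquitin-like modifier Isg15 averaged 52.1 CPM in R219S, 4.81 CPM in WT and 53.2 CPM in EV (3.45 ± 0.27, adjusted p = 2.75e-11). The sensor Zbp1 (3.51 ± 0.24), the synthetase Oas3 (3.30 ± 0.33) and the transcription factor Irf7 (2.32 ± 0.23) rose as well. Ifit2 fell, at 22.46, 29.12 and 26.02 CPM in R219S against 65.7, 60.6 and 67.9 CPM in WT and a mean of 31.7 CPM in EV (-1.32 ± 0.07), and Irf1 was not called.

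Against EV, 3 interferon genes were higher and 7 lower in R219S (median -0.17), and 1 was higher and 41 lower in WT (median -1.74). The summed level of the list was 2326 to 3087 CPM in R219S, 1158 to 1235 CPM in WT and 2581 to 3137 CPM in EV. At day 0, 1 of the 43 was higher in R219S and 8 were lower, and at day 1, 9 were higher and 16 lower. The shares over all tested genes were 23.8% higher and 16% lower at day 0, and 30.5% higher and 29.1% lower at day 1. The difference changed toward R219S from day 0 to day 11 in 41 genes and toward WT in 1. Replicate 2 of R219S had the highest of the 3 R219S levels in 38 of the 43 genes, and with any single library left out 40 to 41 genes rose. That library also had the highest mitochondrial share of the 3, 4.37% against 2.93% and 2.77%, and its 10 most abundant genes took 6.82% of its counts, against 5.26% and 5.19%. Without it the median of the interferon list was 1.35.

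Genes of MHC class I antigen presentation rose with the same replicate highest in all 22 genes. Of the 22 tested, 17 rose and 1 fell (median 0.66). The 1 that fell rests on single libraries: it became 2 without R219S replicate 2 and 0 without any other of the 6 libraries. B2m, the light chain of MHC class I, stood at 426, 588 and 343 CPM in R219S, against 145, 149 and 169 CPM in WT and a mean of 396 CPM in EV (1.55 ± 0.12, adjusted p = 1e-11). The class I gene H2-D1 (0.94 ± 0.08), the peptide transporter gene Tap1 (1.398 ± 0.114) and the class I transactivator Nlrc5 (2.02 ± 0.19) also rose, and in each of these 4 genes the groups did not overlap. H2 genes are close copies of each other, and reads may have been split between them. Against EV, 8 were higher and none lower in R219S, and 1 was higher and 17 lower in WT. Among all tested genes 17.7% were higher and 14.4% lower in R219S, and 21% were higher and 19.7% lower in WT.

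Most tested immune cell markers were not called. Of 16 markers, 7 were tested, of which 1 rose, 1 fell and 5 were not called. The lysosomal macrophage marker Cd68 rose, averaging 6.87 CPM in R219S and 2.91 CPM in WT (1.24 ± 0.19, adjusted p = 1.2e-06), and the macrophage growth factor receptor Csf1r fell, averaging 0.09 CPM in R219S and 2.76 CPM in WT (-4.89 ± 0.35). The sum of the list was 143 to 183 CPM in R219S, 154 to 173 CPM in WT and 101.8 to 119.6 CPM in EV, nearly all of it Cd14. Ptprc, which encodes the leukocyte antigen CD45, averaged 0.009 CPM in R219S and 0.035 CPM in WT, the T cell gene Cd3g averaged 0.055 CPM in R219S and 0 CPM in WT, and Cd4, Tyrobp and Adgre1 had 0 counts in all 3 groups. Whether immune cells contributed to the results above was not tested.

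Of 31 tested NF-kB response genes, 21 rose and 5 fell (median 0.47). Tnfaip3, a feedback inhibitor of the pathway, stood at 154, 170 and 157 CPM in R219S, against 72.0, 71.8 and 83.3 CPM in WT (1.09 ± 0.06, adjusted p = 4.4e-17). The growth factor gene Csf1 rose by 1.14 ± 0.06, and Csf2, which was near 0 in WT, stood at 4.54, 6.86 and 5.48 CPM in R219S against 0.16, 0.09 and 0.23 CPM in WT (5.11 ± 0.31). The acute phase gene Saa3 fell by 4.79 ± 0.87 at a trace level.

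**Figure D3:**
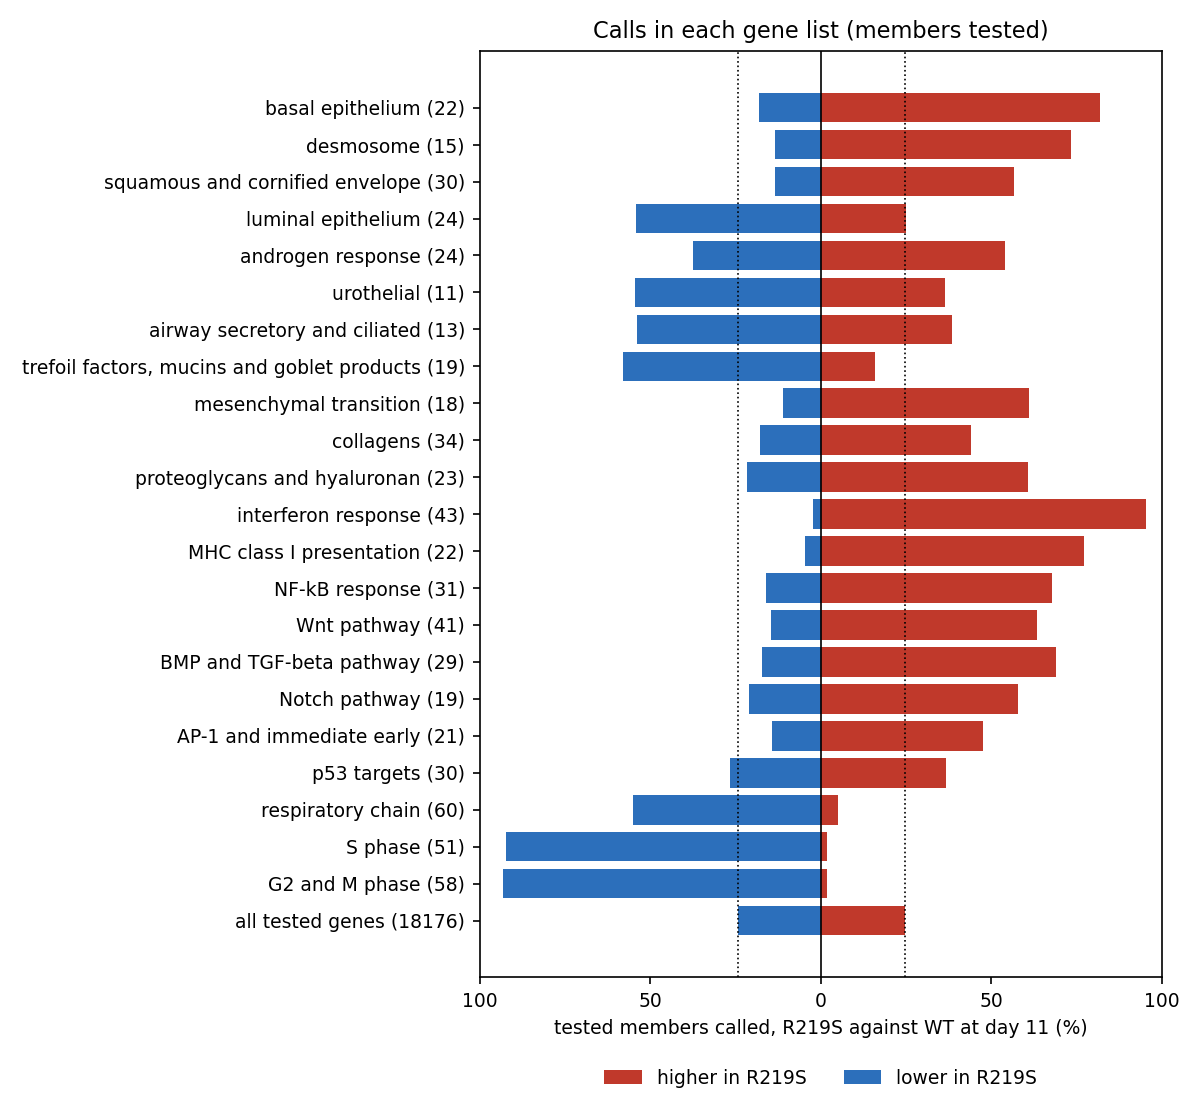
Share of tested members (x axis, %) called higher in R219S (red, to the right) or lower (blue, to the left) than in WT at day 11, for 22 gene lists and for all tested genes; the number of tested members is in brackets and the dotted lines mark the shares over all genes, 24.8% higher and 24.1% lower. The interferon list has 41 of 43 members higher, and the G2 and M phase list has 54 of 58 lower.

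Cell cycle genes were lower in R219S at day 11. Of 58 tested G2 and M phase genes, 54 fell, 1 rose (0 without R219S replicate 3 or WT replicate 3) and 3 were not called (median -0.48), and of 51 S phase genes, 47 fell and 1 rose (median -0.43). Mki67, the proliferation antigen, stood at 155, 179 and 193 CPM in R219S, against 301, 294 and 274 CPM in WT and 229, 217 and 203 CPM in EV (-0.72 ± 0.08, adjusted p = 1e-08). Mcm6, a subunit of the replicative helicase, stood at 223, 230 and 247 CPM in R219S, against 408, 385 and 397 CPM in WT (-0.77 ± 0.05, adjusted p = 3.5e-16). R219S lay below WT in every library for both genes. The condensin gene Ncaph (-0.62 ± 0.05), the mitotic kinase gene Ttk (-0.70 ± 0.07), the replication licensing genes Cdc6 (-0.95 ± 0.08) and Gmnn (-0.92 ± 0.06) and the nuclease gene Exo1 (-0.94 ± 0.07) fell as well.

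The direction had been the other way earlier. On day 0 R219S was higher for 56 of 58 genes acting in G2 and M and for 44 of 51 S phase genes, and lower for none. At day 1 the counts were 57 higher and 0 lower for G2 and M phase, and 48 higher and 2 lower for S phase. Over all tested genes 23.8% were higher and 16% lower at day 0, and 30.5% were higher and 29.1% lower at day 1. The change from day 0 to day 11 was toward WT in all 58 G2 and M phase genes and in 49 of 51 S phase genes, beside 21.4% of all genes. Mki67 had stood at 458, 571 and 469 CPM in R219S at day 0, against 409, 449 and 427 CPM in WT. In R219S its mean was 499 CPM at day 0, 313 CPM at day 1 and 176 CPM at day 11, and in WT it was 428, 237 and 290 CPM on those days. The EV means of Mki67 were 455.4, 457.5 and 216 CPM on the same days, so its level also fell in EV by day 11. Against EV at day 11, 35 G2 and M phase genes were lower and 0 higher in R219S, and 1 was lower and 43 higher in WT. Replicate 3 of R219S had the highest of the R219S levels in 57 of the 58 G2 and M phase genes, and 52 to 56 genes fell with any single library left out. In bulk RNA, fewer cycling cells and less RNA per cycling cell cannot be told apart.

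**Figure D4:**
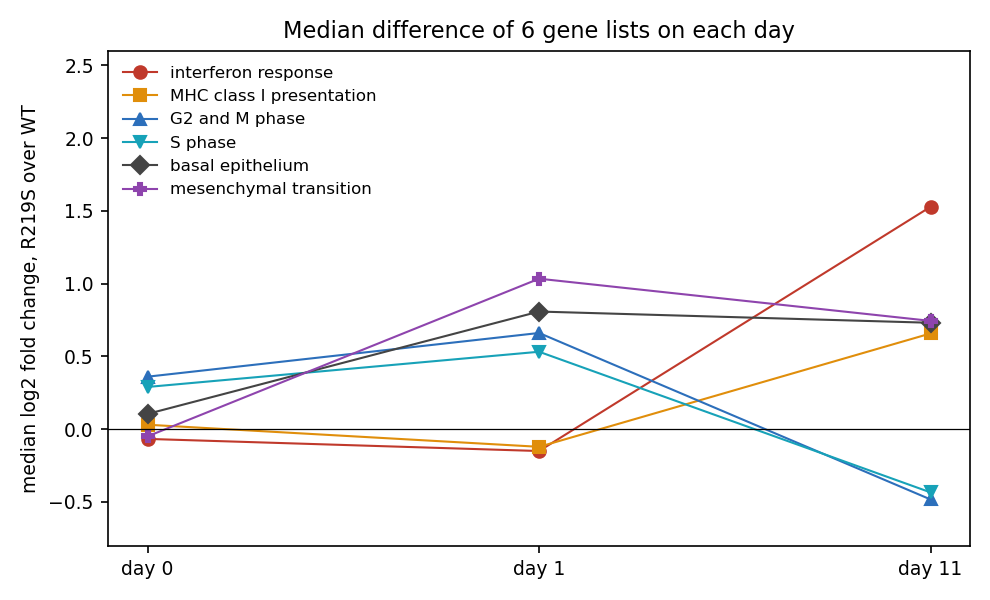
Median log2 fold change of R219S over WT (y axis) at days 0, 1 and 11 (x axis) for 6 gene lists; lines join the medians of a list. The interferon median is -0.07, -0.15 and 1.53 on the 3 days, and the G2 and M phase median is 0.36, 0.66 and -0.48.

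Among p53 target genes, 11 of 30 rose and 8 fell (median 0.05), beside 24.8% higher and 24.1% lower over all tested genes. Under total-count scaling 11 were higher and 12 lower. Cdkn1a, the cell cycle inhibitor p21, stood at 157, 149 and 146 CPM in R219S, against 72.0, 68.6 and 84.0 CPM in WT and a mean of 97.8 CPM in EV (1.01 ± 0.05, adjusted p = 2.2e-17). Phlda3, an inhibitor of Akt signalling, rose by 1.33 ± 0.07, and the kinase gene Plk2 fell by 0.53 ± 0.04. Of 60 respiratory chain genes, 33 fell and 3 rose, with small changes (median -0.15, lowest -0.58 for Uqcr10). The number that fell was 47 under total-count scaling and 22 to 36 with a library left out, the lowest without R219S replicate 1. Ribosomal protein genes changed little at day 11, with 14 of 75 higher and 1 lower (median 0.07), and their split turned to 6 higher and 13 lower under total-count scaling. For this list single libraries decided the counts, with 4 higher and 12 lower without R219S replicate 2, 31 higher without R219S replicate 3 and 8 higher without WT replicate 1.

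Metabolic lists were mixed, and their day 11 counts stand beside 24.8% higher and 24.1% lower over all tested genes. Of 31 cholesterol and fatty acid synthesis genes, 9 rose and 10 fell (median -0.04), with the desaturase gene Sc5d at 80.7, 89.5 and 84.2 CPM in R219S against 48.4, 47.2 and 48.9 CPM in WT (0.82 ± 0.04), and the isomerase gene Ebp lower (-0.52 ± 0.06). Total-count scaling gave 3 higher and 16 lower for this list. Of 30 glycolysis and hypoxia genes, 12 rose and 4 fell (median 0.08), with 10 higher, 8 lower and a median of -0.01 under total-count scaling. Slc16a3, the lactate exporter MCT4, stood at 46.2, 57.9 and 61.8 CPM in R219S, against 16.7, 23.1 and 25.9 CPM in WT and a mean of 56.5 CPM in EV (1.34 ± 0.15). At day 0, 22 of these 30 genes were lower in R219S and 1 was higher, beside 16% lower and 23.8% higher over all tested genes.

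Signalling genes are given by their place in each pathway. Of 41 tested Wnt pathway genes, 26 rose and 6 fell (median 0.33). Among the ligands, Wnt10a stood at 56.1, 72.5 and 59.4 CPM in R219S, against 14.3, 15.9 and 20.4 CPM in WT (1.90 ± 0.10, adjusted p = 3.5e-16), and Wnt9a rose by 1.73 ± 0.13. Among the receptors, Fzd4 stood at 2.36, 2.11 and 2.53 CPM in R219S, against 10.4, 10.8 and 9.84 CPM in WT (-2.15 ± 0.12). The nuclear effector Lef1 (chr3) stood at 19.96, 18.31 and 24.07 CPM in R219S, against 0.14, 0.54 and 0.29 CPM in WT and a mean of 1.34 CPM in EV (6.06 ± 0.33, adjusted p = 1.4e-16). The groups did not overlap in these genes.

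In the Notch pathway 11 of 19 tested genes rose and 4 fell (median 0.28). The ligand gene Jag1 stood at 207, 220 and 163 CPM in R219S, against 60.5, 55.7 and 61.1 CPM in WT and a mean of 111 CPM in EV (1.73 ± 0.08, adjusted p = 1.6e-18). The ligand gene Dll4 fell by 4.30 ± 0.35 at a trace level. The receptor gene Notch3 rose by 0.77 ± 0.07, and of the target genes Hes1 rose by 0.42 ± 0.04 and Hey1 fell by 3.25 ± 0.20.

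In the BMP and TGF-beta pathways 20 of 29 tested genes rose and 5 fell (median 0.53). The ligand gene Bmp2 stood at 14.4, 15.7 and 13.3 CPM in R219S, against 2.25, 2.26 and 2.10 CPM in WT and a mean of 2.46 CPM in EV (2.71 ± 0.17, adjusted p = 5.2e-15). The ligand gene Bmp3 fell by 4.21 ± 0.25, the antagonist gene Fst rose by 1.94 ± 0.10 and the target gene Id4 rose by 2.48 ± 0.10. In the EGF family and its feedback genes, 7 of 21 rose and 5 fell (median -0.003), beside 24.8% higher and 24.1% lower over all tested genes. There were 7 in each direction under total-count scaling, and 3 lower without R219S replicate 3. Areg, which encodes amphiregulin, stood at 38.3, 35.8 and 35.2 CPM in R219S, against 10.9, 11.5 and 13.0 CPM in WT and a mean of 9.19 CPM in EV (1.63 ± 0.09, adjusted p = 1.1e-16), and the ligand genes Tgfa (1.12 ± 0.05) and Hbegf (1.04 ± 0.08) rose. Of 21 AP-1 and immediate early genes, 10 rose and 3 fell (median 0.40), with Jun at 369, 375 and 345 CPM in R219S against 176, 180 and 207 CPM in WT (0.95 ± 0.05) and Klf4, a factor of epithelial differentiation, higher by 1.56 ± 0.09.

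In the IGF axis 4 of 12 tested genes rose and 5 fell. These counts, and those of the forkhead and Sox lists below, stand beside 24.8% higher and 24.1% lower over all tested genes. Besides Igf1, the binding protein genes Igfbp3 (3.68 ± 0.22) and Igfbp7 (2.30 ± 0.11) rose, whereas Igfbp5 fell, at 3.88, 6.06 and 8.25 CPM in R219S against 100.1, 66.6 and 62.1 CPM in WT (-3.66 ± 0.28). The imprinted non-coding RNA H19 stood at 0.13, 0.09 and 0.19 CPM in R219S, against 11.8, 21.1 and 33.1 CPM in WT and a mean of 0.38 CPM in EV (-7.29 ± 0.45, adjusted p = 8.3e-14). Of 26 tested forkhead genes, 10 rose and 7 fell (median 0.01), turning to 8 higher and 9 lower under total-count scaling. Foxc1 rose by 0.79 ± 0.06, Foxq1 fell by 0.44 ± 0.05, and Foxm1, a factor of proliferating cells, fell by 0.40 ± 0.07. Of 10 tested Sox genes, 6 rose and 1, Sox5, fell (-1.80 ± 0.14), and Sox9 rose by 0.32 ± 0.06.

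The remaining lists held few tested or called genes, and their counts stand beside 24.8% higher and 24.1% lower over all tested genes. Of 11 tested claudins, which form tight junctions, 2 rose and 5 fell, with Cldn1 higher (2.38 ± 0.11) and Cldn10 (-2.88 ± 0.13), Cldn8 (-1.84 ± 0.13) and Cldn2 (-7.43 ± 0.63) lower. Of 8 tested neuroendocrine genes, 2 rose and 1 fell. Of 12 tested foregut, liver and gut factors, 4 rose and 5 fell, and of 14 brush border genes, 3 rose and 4 fell, with the cadherin gene Cdh17 higher (3.42 ± 0.27) and the actin bundler Pls1 lower (-1.05 ± 0.05).

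Some day 11 differences were the reverse of those at day 0. The difference changed between the days, with opposite calls at each, in 1570 genes, of which 1314 also had no overlap between the groups on either day and met the level required for naming. Vim stood at 4.39, 4.17 and 3.60 CPM in R219S at day 0, against 10.5, 11.0 and 10.2 CPM in WT (-1.38 ± 0.16, adjusted p = 8.5e-08). At day 1 the groups overlapped, with 32.7, 38.8 and 31.6 CPM in R219S against 31.83, 32.96 and 30.47 CPM in WT. Lef1 was at 0.27, 0.15 and 0.09 CPM in R219S at day 0 against 0.33, 0.37 and 0.37 CPM in WT, and Pygo1, a co-factor of Wnt signalling, at 0, 0.02 and 0 CPM in R219S against 0.14, 0.19 and 0.20 CPM in WT. Pygo1 reached 8.73, 9.86 and 12.1 CPM in R219S at day 11, against 0.41, 0.71 and 0.26 CPM in WT (4.47 ± 0.26). For Lef1, Pygo1 and Agr3 the day 0 difference lay at trace levels, so the reversal rests on few counts on that day.

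Agr3, a disulfide isomerase of secretory cells, had 0 counts in R219S at day 0 and stood at 10.1, 9.66 and 11.5 CPM at day 11, against 0.03, 0 and 0.17 CPM in WT. Among the 6 named genes with opposite calls, the 2 that turned toward WT were Aif1l, an actin-binding protein, and Plac8, a small cysteine-rich protein. Plac8 stood at 0.46, 0.61 and 0.55 CPM in R219S at day 11, against 10.4, 9.39 and 9.28 CPM in WT (-4.17 ± 0.20), and at 1.55, 1.03 and 1.45 CPM in R219S at day 0, against 0.89, 0.59 and 1.02 CPM in WT (0.65 ± 0.21). Aif1l fell by 4.38 ± 0.25 at day 11.

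**Figure D5:**
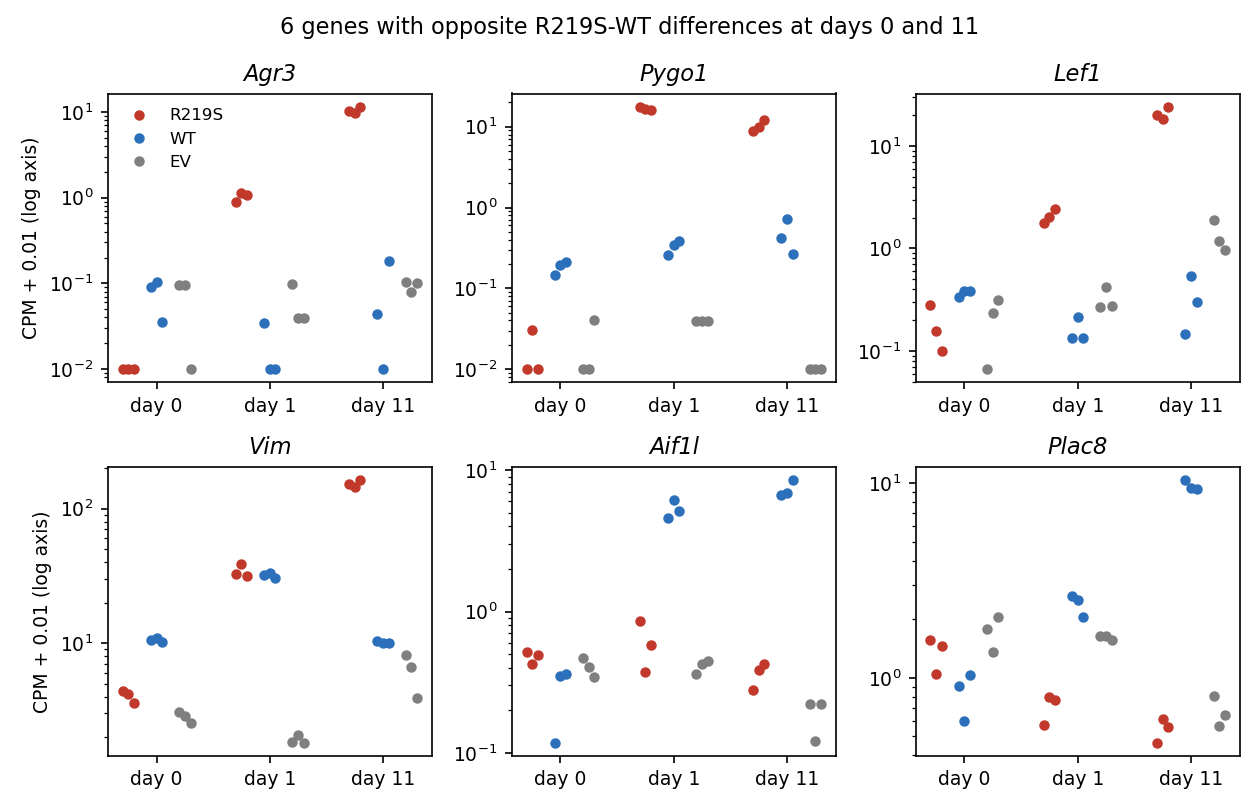
Level in each library (y axis, CPM + 0.01 on a log axis) at days 0, 1 and 11 (x axis) of the 6 genes with the largest change among those with opposite R219S-WT calls at days 0 and 11, for R219S, WT and EV. Vim is below WT in R219S at day 0 (3.60 to 4.39 CPM) and above it at day 11 (145 to 163 CPM), and Plac8 goes the other way.

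Other differences were present on every day. Calls had the same direction on all 3 days in 2251 genes. The rule for naming, of which no overlap of the groups on any day is only a part, was met by 1724 of them. The 6 named are those whose smallest absolute log2 fold change over the 3 days was largest, and all were lower in R219S. Osbpl6, an oxysterol-binding protein, stood at 0.34, 0.38 and 0.24 CPM in R219S at day 0, against 7.33, 6.87 and 7.25 CPM in WT. At day 11 Osbpl6 stood at 0.19, 0.23 and 0.44 CPM in R219S, against a mean of 20.4 CPM in WT and 1.002 CPM in EV (-6.14 ± 0.17, adjusted p = 1.1e-24). Upk3a was lower in R219S at day 0 as well, at 0.52, 0.31 and 0.15 CPM against 3.54, 4.32 and 3.93 CPM in WT. Spdef, whose promoter stretch is shown above, stood at 0.03, 0.06 and 0.06 CPM in R219S at day 0, against 1.38, 1.64 and 1.00 CPM in WT, and the synaptotagmin gene Syt7 at 0.24, 0.19 and 0.48 CPM in R219S, against 3.08, 3.27 and 4.08 CPM in WT. The other 2 were the co-receptor gene Gfra1 (-6.64 ± 0.36 at day 11) and Hfm1, a meiotic helicase gene that was at least 11.9-fold lower at day 11. Hfm1 was at trace levels in WT at days 0 and 11 (0.06 and 0.16 CPM on average) and at 17.3, 13.3 and 18.3 CPM in WT at day 1. The rule that named these 6 required the same direction on every day, so that they were lower at day 0 is no separate result.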

How the data were processed

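RNA sequencing of 36 libraries in 12 groups of 3 was analysed. Per the labels' protocols, polyadenylated RNA was made into libraries with a stranded kit. Per the submitters' processing notes, STAR 2.4.2a, featureCounts 1.4.3 and mm10 were used. The annotation release and strand setting are not given in the sources used here. The deposited values have the unit of expected counts per gene: 298311 of them carry a decimal part, at most 3.0e-09 off an integer, and rounding removed it. Of counts of 1 to 20, 69.7% are even, against 50.3% above 1000, so both mates of a pair may have been counted, and intervals and bounds, which cover counting error only, are then too narrow. Overlapping, antisense and near-identical genes may share reads.

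Of 45232 gene IDs, 44585 matched a symbol, and 18176 genes passed filterByExpr in edgeR 4.0.16 (R 4.3.3). Library totals ran from 61476938 to 102385337. After TMM scaling, a model of 12 group means with robust quasi-likelihood dispersion was fitted to the 36 libraries. Contrasts used edgeR's two-sided quasi-likelihood F test, Benjamini-Hochberg adjustment over all tested genes and a threshold of 0.05. Levels are CPM. Fold changes are log2 of R219S over WT and include edgeR's small prior count. SE is the absolute log2 fold change without that prior count, divided by the root of F. For a group with 0 counts the fold is a bound with 3 counts over its 3 libraries, and for 1 to 3 counts a 95% exact conditional interval is given.

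Named genes are 17 fixed ones and the 6 members of smallest p in each list. Also named are the 12 largest positive and 12 largest negative fold changes past the threshold, predicted-gene names left out. For these the 6 libraries average 2 CPM or more and the groups do not overlap. The 6 genes opposite at days 0 and 11 are those with the largest change. The 6 genes alike on all days are those whose smallest absolute log2 fold change over the days is largest. Other members printed were chosen after their values were seen. The comparison, lists and rules were chosen with earlier results of these data known. Lists are described by counts and medians without a set test. Gene positions are from GENCODE vM21 and promoter windows from RefSeq, both GRCm38. The fit was tested on simulated data. Alternatives were RLE and total-count scaling, other filters, the compared groups alone, DESeq2 1.42.0, voom in limma 3.58.1, halved counts, a replicate term and leaving out each library. Results for some genes are not reported here.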

Additional observations from a re-analysis of the deposited data

Results flagged for a closer look

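The difference between R219S and WT itself differed between days in the interaction test. From day 0 to day 11 it moved toward R219S in 3368 genes and toward WT in 3897, and from day 1 to day 11 toward R219S in 4062 genes and toward WT in 4220. Among named genes the change of the log2 difference from day 0 to day 11 was 5.31 for Vim, 7.18 for Lef1, 8.51 for Pygo1 and 12.50 for Agr3, and it was -5.18 for Aif1l and -4.82 for Plac8. The fitted value for Agr3 depends on a small prior count, since R219S had no count of it at day 0.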

How the results depend on the processing

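Over 16 alternatives at day 11, none of the 243 called named genes changed direction, and 21 lost the call in at least 1. Replicate numbers do not pair the samples: same-numbered libraries correlated in their deviations at 0.04, -0.09 and -0.19, and 1 of 6 correlated best with its own number. With a replicate block in the 36-library fit, 4537 genes were higher and 4431 lower. With a replicate block and only the compared groups, 3182 were higher and 2858 lower, beside 4383 lower without these changes. That fit has few residual degrees of freedom and 16012 tested genes. Leaving out single libraries gave 4038 to 4529 higher and 3937 to 4360 lower genes. Genes that were not called changed sign. With a library left out, the log2 fold change ran from -0.0901 to 0.067 for Foxa1, -0.02 to 0.1876 for Mmp7, -1.4979 to 0.1979 for Scg5, -0.1645 to 1.0627 for Cnn1, -0.1153 to 0.0514 for Cd14 and -0.1367 to 0.1309 for Egfl7, and the cause was not tested. Total-count scaling gave -0.0589 for Egfl7 and -0.0268 for Map2. List medians changed sign for glycolysis under total-count scaling (-0.0133) and, where the filter changes which low members are tested, for foregut factors (0.0389 with a stricter filter, 0.0022 with the block and compared groups), smooth muscle (0.3945) and endothelial markers (0.0258) with a stricter filter. Neural and glial markers gave -0.1452 with a stricter filter, -0.3416 with only the compared groups and -0.3408 with the block as well. Depth limits genes near 0 CPM, whose folds are bounds.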
